A study of Ovis aries with 2 samples.

Results

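The transcription factors FOXN1, HOXC13, DLX3, GATA3, CUX1 and LHX2 were followed across the skin of Hu sheep lambs with straight or curly wool. They are 6 factors of the hair lineage chosen by name, and a row was found by symbol for 5 of them among the 18161 genes of the table. LHX2, a LIM homeobox factor of hair follicle stem cells, was not analysed here. Every deposited cell of both libraries, 14037 in all, was used.

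Wool is made in the hair bulb. There, dividing matrix cells above the dermal papilla feed an outer tube, the inner root sheath (IRS), and a core, the hair shaft, each of which switches on its own keratins. FOXN1 is the forkhead factor missing in the nude mouse, and HOXC13 is a homeobox factor that acts on hair shaft keratin genes. DLX3 is a homeobox factor needed for hair formation, GATA3 is a zinc finger factor known for IRS fate, and CUX1 is a cut homeobox factor known in the IRS and matrix of mouse hair.

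Skin from the body side of lambs aged 3 days was pooled by phenotype, and suspensions of dissected follicles and of whole skin were mixed. Each pool gave 1 library of 10x Genomics droplet RNA-seq, which counts unique molecular identifiers (UMIs), that is, tagged RNA molecules. In the deposited data the straight wool library held 6452 cells and the curly wool library, labelled as waved wool, 7585 cells. The paper reports more cells for each wool type. All lambs were Hu sheep, and the labels name no treatment. Since each wool type had 1 library, there was no spread between samples and no test between wool types. Levels are given as CPM, the UMIs of a gene per 1000000 UMIs of the same cells, with exact Poisson 95% intervals. These intervals cover counting error only.

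The straight library held 57956122 UMIs and the curly library 77634565. Median depth was 7374 UMIs in straight cells and 7495 in curly cells, and 70 cell barcodes occurred in both libraries. Cells were clustered without the members, and 17 of 23 clusters received a class name from marker genes, with "-like" added. The unnamed clusters held 9.75% of straight and 21% of curly cells. Class names rested on keratins where the factors act: KRT71, an IRS keratin, stood at 6768 and 9636 CPM in straight and curly IRS-like cells. KRT35, a hair shaft keratin, stood at 9073 CPM in the hair shaft-like cells of the straight library and at 318.8 CPM in its IRS-like cells. The basal interfollicular epidermis (IFE)-like name was weak, its marker score only just reaching the minimum of 1.5. The hair follicle stem cell-like name lay close to that minimum too, at 1.52 in a cluster led by LGR5 and 1.67 in a cluster led by PTHLH.

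Over whole libraries, all 5 factors were detected. FOXN1 had 513 straight and 763 curly UMIs, or 8.85 and 9.83 CPM, and was seen in 4.93% and 7.59% of cells. HOXC13 came to 18.3 and 33.5 CPM in the same order. DLX3 had 23.0 and 42.1 CPM. GATA3 had 76.7 and 110 CPM, and was seen in 28.8% and 37.9% of cells. CUX1 had 35.8 and 48.8 CPM.

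Those library totals mix cell types, and the libraries held different mixes. IRS-like cells were 2.15% of straight and 5.67% of curly cells and carried 3.45% and 9.69% of UMIs. Matrix-like cells carried 14.9% and 22.1% of UMIs. Dermal papilla cell (DPC)-like cells were 19.2% and 8.73% of cells and carried 13.6% and 3.97% of UMIs. With curly levels weighted by the straight mix of clusters, the log2 ratio of curly over straight went from 0.87 to 0.44 for HOXC13 and from 0.88 to 0.38 for DLX3. It went from 0.52 to 0.30 for GATA3, from 0.44 to -0.009 for CUX1 and from 0.15 to -0.14 for FOXN1. The median over 15593 genes, unweighted, was -0.19.

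All 5 factors had their highest level, among 13 named classes with at least 25 cells in each library, in a class of the hair follicle in both libraries. Of 11986 genes with at least 200 UMIs, 15.9% did the same. FOXN1 and HOXC13 were highest in hair shaft-like cells, and DLX3, GATA3 and CUX1 in IRS-like cells. The levels in each cluster differed in how far outside the bulb they reached.

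**Figure D1:**
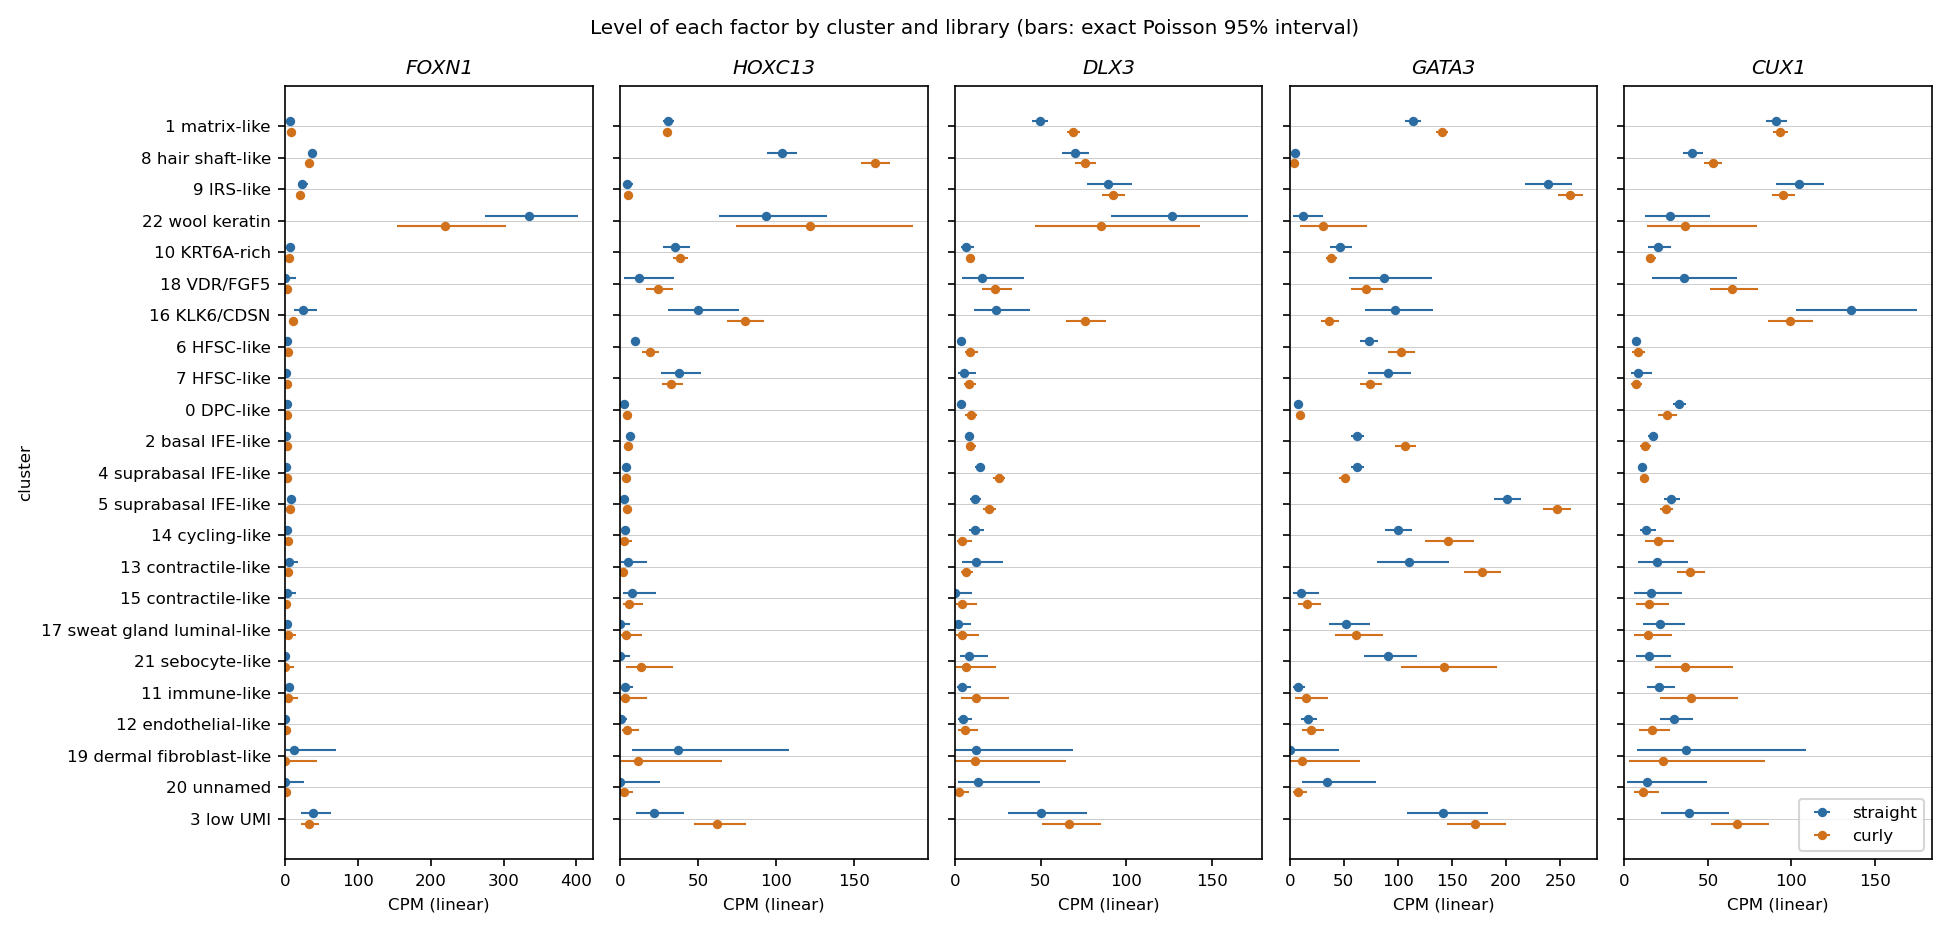
Level of each factor in CPM (x axis, linear, with its own scale in each panel) in the 23 clusters (y axis) of the straight (blue) and curly (orange) library, with exact Poisson 95% intervals. HOXC13 stands out in hair shaft-like cells, at 104 and 164 CPM, GATA3 in IRS-like and FLG-bearing suprabasal cells, and FOXN1 in the small wool keratin cluster, at 334 and 219 CPM.

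FOXN1 was concentrated in differentiating hair cells. Its level was 36.8 CPM (95% interval 31.4 to 42.9) in straight and 33.0 CPM (29.1 to 37.4) in curly hair shaft-like cells. IRS-like cells followed with 23.5 CPM (17.2 to 31.2) and 20.2 CPM (17.1 to 23.7). Matrix-like cells had 6.93 and 7.56 CPM. The steps from hair shaft to IRS and from IRS to matrix exceeded counting error in both libraries. DPC-like cells had 1.65 and 1.95 CPM, and endothelial-like cells had 0 straight UMIs, which allows up to 2.8 CPM, and 1 curly UMI. In the epidermis, suprabasal cells with FLG, the gene of the barrier protein filaggrin, had 7.17 and 5.62 CPM of FOXN1.

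The highest FOXN1 lay beyond the hair shaft-like class, in 34 cells led by KRT2.11, BIIIB4 and other wool keratin genes. This cluster missed the score for a hair shaft name, at 1.48, and so stayed unnamed. FOXN1 had 111 UMIs in its 21 straight cells and 36 UMIs in its 13 curly cells, or 334 CPM (275 to 403) and 219 CPM (154 to 303). It was seen in 13 of the 21 and in 8 of the 13 cells, with up to 24 UMIs in a straight cell and up to 13 in a curly cell. In that cluster 7 straight and 4 curly cells had 5 or more FOXN1 UMIs, against 5 of 264 straight and 5 of 416 curly hair shaft-like cells and 0 IRS-like or matrix-like cells.

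That cluster is small and its straight cells carried high doublet scores. Of the straight cells, 18 of 21 were among the 6% with the highest scores, against 0 of 13 curly cells. Without those 18 the straight level was 370 CPM, but only from the few cells left of the 21. Without the curly cell richest in FOXN1 the curly level was 151 CPM, below the cluster's curly interval of 154 to 303. At the finest clustering, 51 straight and 117 curly cells grouped by the same wool keratins, with median depths of 1219 and 1049 UMIs, and 79.2% of them came from the low-UMI cluster. FOXN1 there came to 255 CPM for the straight and 149 CPM for the curly library. Without high doublet scores, 25 straight cells had 261 CPM (174 to 378) and 109 curly cells 163 CPM (120 to 217). Both lay above the hair shaft-like intervals and rest on 28 straight and 48 curly UMIs. As a finer clustering of the same data, this grouping can hold cells of the small cluster above, so it is no separate support for its level. The same grouping had 74.4 and 143 CPM of HOXC13, and 12.8 and 45.7 CPM of GATA3. KRT71, the IRS keratin, stood there at 263.5 and 948 CPM, and its part in the GATA3 value was not tested.

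HOXC13 marked the hair shaft side most sharply among the factors. It had 459 UMIs in straight and 1249 in curly hair shaft-like cells, or 104 CPM (94.3 to 114) and 164 CPM (155 to 173). In IRS-like cells 9 straight and 40 curly UMIs gave 4.50 and 5.32 CPM. Matrix-like cells lay between, at 30.8 and 30.1 CPM. The 3 classes did not overlap in their intervals, in either library.

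HOXC13 was also found outside the matrix-like, hair shaft-like and IRS-like classes, in clusters whose position in the skin was not measured. Hair follicle stem cell (HFSC)-like cells formed a cluster led by LGR5, a Wnt-pathway receptor of stem cells, and a cluster led by PTHLH and SFTPC. PTHLH and SFTPC were on the marker list of the outer root sheath. The 10 leading genes of the PTHLH cluster held 2 markers of HFSC and 2 of the outer root sheath, so its name rested on a tie there. The LGR5 cluster had 37.6 CPM (26.3 to 52.0) and 32.9 CPM (26.6 to 40.1) of HOXC13. The PTHLH cluster had 9.44 and 18.9 CPM, below it in both libraries and with intervals apart in both. A cluster rich in KRT6A, a keratin of the companion layer, had 35.2 and 38.3 CPM. A cluster led by KLK6 and CDSN, genes of cell shedding, had 49.9 and 79.9 CPM. Basal IFE-like cells had 6.16 and 5.22 CPM, and FLG-bearing cells 2.25 and 4.60 CPM.

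DLX3 was found in all 3 classes of the bulb. IRS-like cells had 89.4 CPM (76.8 to 104) and 92.4 CPM (85.7 to 99.6). Hair shaft-like cells had 70.2 CPM (62.6 to 78.4) and 76.1 CPM (70.0 to 82.6). Matrix-like cells had 49.4 CPM (44.9 to 54.4) and 69.2 CPM (65.3 to 73.2). The ratio of hair shaft to IRS lay below 1 beyond counting error in both libraries, and the ratio of hair shaft to matrix lay above 1 beyond counting error in the straight library but not in the curly one. Outside the bulb, the suprabasal IFE-like cells with KRT79 had 14.6 and 25.6 CPM and the LGR5 cluster 5.22 and 8.22 CPM.

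GATA3 was high on the IRS side and in the epidermis, and nearly missing from the hair shaft. IRS-like cells had 238 CPM (217 to 261) and 259 CPM (248 to 271), with GATA3 in 72.7% and 77.9% of them. Matrix-like cells had 114 and 140 CPM. Hair shaft-like cells held 20 and 33 UMIs, or 4.51 and 4.32 CPM, close to the 7.35 and 9.10 CPM of DPC-like cells. FLG-bearing suprabasal cells had 201 CPM (189 to 214) and 247 CPM (234 to 260), against 62.4 and 50.8 CPM in the suprabasal cells with KRT79. IRS-like cells lay just above the FLG-bearing cells in the straight library, and the intervals of these classes overlapped in the curly library.

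GATA3 was also found in gland-like and contractile-like cells. Sweat gland luminal-like cells had 52.4 and 61.1 CPM, and sebocyte-like cells, 52 straight and 19 curly, had 90.6 and 142.5 CPM. Contractile-like cells with ACTG2 had 111 CPM (81.0 to 148) and 177 CPM (161 to 195). These cells also carried the epithelial keratin KRT5, at 3781 and 4033 CPM. Contractile-like cells with DES and RGS5, genes of vessel-wall cells, had 10.5 and 16 CPM of GATA3. GATA3 is also known in T lymphocytes. Immune-like cells, led by the mast cell gene TPSB2, had 7.36 and 15.3 CPM, and 2 defining T lymphocyte genes, CD3E and CD3D, had 0 UMIs there in both libraries. The other T lymphocyte genes measured had up to 20 UMIs each, the most for IL7R.

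CUX1 was high in matrix and IRS together. Matrix-like cells had 90.9 CPM (84.7 to 97.5) and 93.2 CPM (88.7 to 97.9). IRS-like cells had 104 CPM (90.7 to 120) and 95 CPM (88.1 to 102), which overlapped the matrix in both libraries. Hair shaft-like cells had 40.6 and 52.8 CPM, below both. The KLK6 cluster had 135 CPM (103 to 176) and 98.9 CPM (86.2 to 113), and the LGR5 cluster 8.35 and 6.85 CPM. Outside the follicle epithelium, DPC-like cells showed CUX1 at 32.8 and 25.3 CPM. Endothelial-like cells showed it at 29.9 and 16.2 CPM.

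Setting hair shaft-like against IRS-like cells within each library separates the 2 products of the matrix. HOXC13 was 23.0-fold higher (95% interval 12 to 50.7) in straight and 30.8-fold higher (22.5 to 43.3) in curly hair shaft-like cells. GATA3 was 52.8-fold higher (33.8 to 87.2) in straight and 59.9-fold higher (42.5 to 87.3) in curly IRS-like cells. Thus 2 of 5 factors passed 2-fold in both libraries, 1 in each direction. Among 8975 genes with at least 20 UMIs in these classes, 10.2% passed, 5.78% toward the hair shaft and 4.46% toward the IRS.

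The other factors did not pass 2-fold in both libraries. FOXN1 had a log2 ratio of hair shaft over IRS of 0.65 in straight and 0.71 in curly cells, with intervals of 0.17 to 1.15 and 0.41 to 1.01. DLX3 had log2 ratios of -0.35 (-0.62 to -0.08) and -0.28 (-0.44 to -0.12). CUX1 had log2 ratios of -1.36 and -0.85, so it passed 2-fold in the straight library and not in the curly one. The median over all genes was -0.02 in straight and 0.23 in curly cells. With a stricter minimum of genes per cell, FOXN1 passed 2-fold in both libraries, at log2 2.13 and 1.25, and DLX3 turned to 0.46 and 0.09. With CPM averaged over cells, FOXN1 stood at 0.29 and 0.18.

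**Figure D2:**
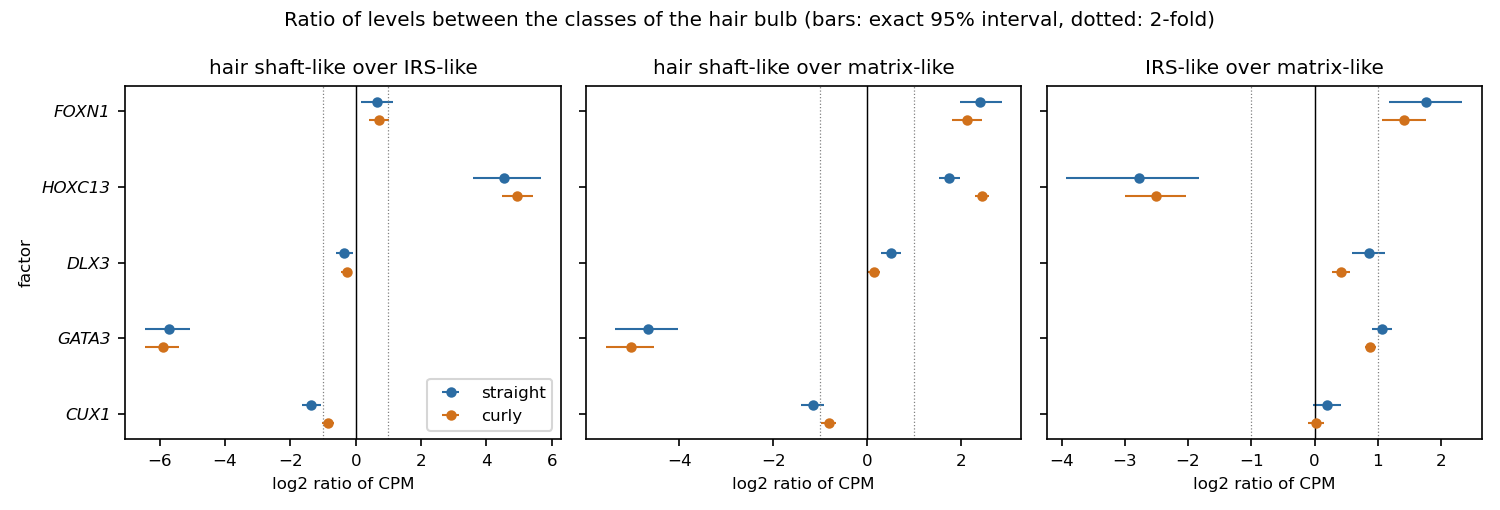
Log2 ratio of each factor's CPM (x axis) between hair shaft-like, IRS-like and matrix-like cells for the 5 factors (y axis) in the straight (blue) and curly (orange) library, with exact 95% intervals and dotted lines at 2-fold. HOXC13 lies at 4.53 and 4.94 for hair shaft over IRS, and GATA3 at -5.72 and -5.90, on opposite sides of the other factors.

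Against matrix-like cells, FOXN1 was higher in both products, by log2 2.41 and 2.13 in hair shaft-like and by 1.76 and 1.42 in IRS-like cells of the straight and curly library. HOXC13 was higher by 1.75 and 2.44 in the hair shaft and differed by -2.78 and -2.50 in the IRS. GATA3 was the mirror image, with -4.66 and -5.02 in the hair shaft and 1.07 and 0.88 in the IRS. CUX1 in the IRS lay within 0.20 and 0.03 of the matrix on the log2 scale, and both intervals held 0.

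A list of 30 other factors of the hair follicle gave the background for such a split. Of these, 28 had a row and 18 had enough UMIs, of which 2 passed 2-fold toward the hair shaft and 5 toward the IRS in both libraries. LEF1, the nuclear partner of beta-catenin, reached 125 and 131 CPM on the hair shaft side and 22.5 and 19 CPM in IRS-like cells. RUNX1 had 12.9 and 11.1 CPM against 4.50 and 3.86 CPM. Toward the IRS, GRHL3 had 52.0 and 40.7 CPM against 9.93 and 8.39 CPM in the hair shaft. TFAP2A, SOX9, TCF7L2 and FOXE1 were the others. The list's median log2 ratio was -0.46 in straight and -0.15 in curly cells.

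Cells of the matrix, IRS and hair shaft were also placed along a diffusion ordering, and each path from matrix to product was divided into 5 parts of equal cell number. The ordering used 2794 cells and none of the members. Every matrix-like cell was placed on both paths, so the early parts of the paths hold largely the same cells. In the third part, 90.6% of cells on the hair shaft path and 93.4% on the IRS path were matrix-like. KRT71 on the hair shaft path was 253 and 273 CPM in the third part, against 56.3 and 77.0 CPM in the last. The early parts thus do not describe separate courses toward each product. On the hair shaft path, GATA3 was 83.1 and 120 CPM in the first part, 121 and 147 CPM in the third, 68.3 and 69.6 CPM in the fourth and 3.93 and 3.96 CPM in the last. HOXC13 was 31.7 and 32.0 CPM in the first part, 50.8 and 69.6 CPM in the fourth and 113 and 179 CPM in the last. FOXN1 was 9.87 and 11 CPM in the fourth part and 47.5 and 39.8 CPM in the last. Between the third and the fourth part, where 51.7% of cells were still matrix-like, HOXC13 was already higher and GATA3 lower beyond counting error, while the FOXN1 intervals overlapped up to the last part.

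On the IRS path, GATA3 was 84.9 and 120 CPM in the first part and 256 and 253 CPM in the last. HOXC13 was 31.8 and 32.5 CPM in the first part, 14.2 and 14.4 CPM in the fourth and 15.7 and 7.99 CPM in the last. DLX3 had a dip in between, with 59.8 and 87.2 CPM at the start, 31.0 and 53.6 CPM in the fourth part and 120 and 107 CPM at the end. CUX1 stayed between 81.8 and 113 CPM throughout the IRS path. Between the ends of both paths, 2 of 5 factors, HOXC13 and GATA3, passed 2-fold in both libraries, against 9.97% of 8133 genes. Only 5.4% of cells in the last hair shaft part and 6.6% in the last IRS part were matrix-like. This contrast therefore largely repeats the comparison of hair shaft-like with IRS-like cells on the same cells. FOXN1 stood close to 2-fold, at log2 0.99 and 1.21, and 3 of 5 factors passed with 20 principal components and with 10 parts.

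**Figure D3:**
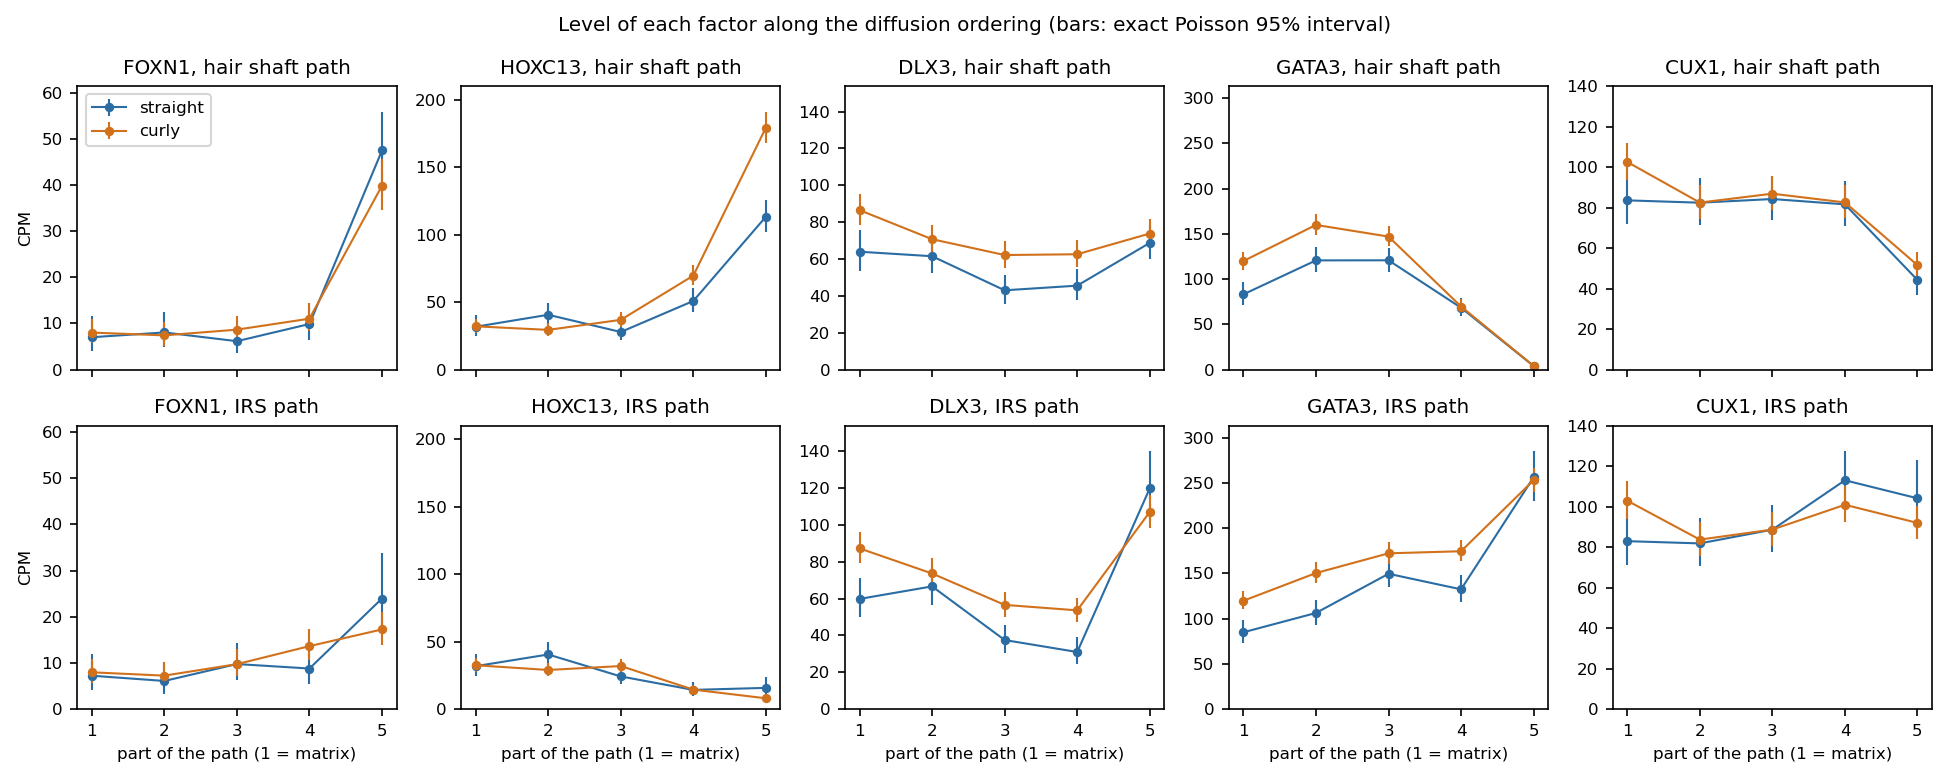
Level of each factor in CPM (y axis, from 0) in 5 successive parts (x axis) of the hair shaft path (top) and IRS path (bottom) for the straight (blue) and curly (orange) library, with exact Poisson 95% intervals. At the last part of the hair shaft path GATA3 is 3.93 and 3.96 CPM and HOXC13 113 and 179 CPM, and at the last part of the IRS path GATA3 is 256 and 253 CPM.

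The matrix itself held 3 finer groups with different factor levels. The dividing group, led by UBE2C and TOP2A, had 37.7 and 28.9 CPM of HOXC13, and the group led by FABP7 with the replication gene MCM5 had 39.8 and 41.1 CPM. The third, led by STC1, PTGS2 and FGF5, had 4.17 and 8.53 CPM of HOXC13. DLX3 followed the same order, with 52.2 and 69.2 CPM, 68.7 and 91.5 CPM, and 15.6 and 17.8 CPM. GATA3 in the STC1 group was 142 and 170 CPM and CUX1 104 and 110 CPM, so these factors were not low there. In the FABP7 group GATA3 was 73.8 and 119 CPM.

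Detection in single cells was compared after each cell was reduced to 4000 UMIs. HOXC13 was then found in 31.6% of straight (25.5 to 38.1, exact Clopper-Pearson) and 43.0% (38.1 to 48.1) of curly hair shaft-like cells, and in 0 of 113 straight and 1 of 79 curly endothelial-like cells. GATA3 was found in 54.3% and 55.0% of IRS-like cells, and in 2.22% and 2.06% of hair shaft-like cells, against 4.42% and 3.80% of endothelial-like cells. The GATA3 intervals of hair shaft-like and endothelial-like cells overlapped. Summed over all cells, however, endothelial-like GATA3 was 16.9 and 19.7 CPM, above the hair shaft-like level with intervals apart. The endothelial-like share therefore cannot set a background level for GATA3. KRT71, abundant in the IRS, was found in 19.5% and 48.1% of endothelial-like cells. Of all endothelial-like cells, 17.2% and 17.5% had high doublet scores, and the part of these or of free RNA in such counts was not tested. DLX3 was found in 26.7% and 27.4% of IRS-like cells, against 1.77% and 2.53%. FOXN1 reached 15.6% of straight and 8.25% of curly hair shaft-like cells, against 0 of 113 and 1 of 79. In IRS-like cells its shares were 9.52% and 8.93%, so at this depth the curly hair shaft share was not above that of the IRS. For 4 of 5 factors the share in the highest class lay above that of endothelial-like cells in both libraries, as for 16.1% of genes, and FOXN1, whose curly intervals overlapped, was the exception.

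The same thinned cells showed which factors met. At least 2 factors were found in 35.2% and 39.8% of IRS-like cells, 20.4% and 22.4% of hair shaft-like cells and 22% and 25.4% of matrix-like cells, against 0 of the endothelial-like cells. In curly matrix-like cells, HOXC13 was found in 5.40% of cells with GATA3 (3.18 to 8.50) and in 14.6% of cells without it (12 to 17.7). In straight matrix-like cells these shares were 10.2% and 9.38%, with overlapping intervals. In curly IRS-like cells, GATA3 was found in 70.4% of cells with CUX1 and in 48.1% of cells without it, whereas in straight IRS-like cells these shares were 54.8% and 54.1%.

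Within the bulb, none of the 5 factors passed 2-fold between curly and straight cells of the matrix-like, hair shaft-like or IRS-like class. In hair shaft-like cells HOXC13 had a log2 ratio of curly over straight of 0.66 (0.50 to 0.82), where the median gene stood at 0.00 and 7.99% of genes passed 2-fold. FOXN1 had -0.16 there and DLX3 0.12, with intervals holding 0. In matrix-like cells DLX3 had 0.48 (0.32 to 0.65) and GATA3 0.30 (0.20 to 0.41), where 6.16% of genes passed 2-fold and HOXC13 stood at -0.03. In IRS-like cells, where 10.9% of genes passed 2-fold, all 5 intervals held 0. HOXC13 stood there at 0.24, but without integration it passed 2-fold at 1.48, from 3 straight and 39 curly UMIs.

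Over all classes, 45 of 65 pairs of factor and class had at least 20 UMIs, and 5 of them passed 2-fold, in 3 of 5 factors, against 12% of all pairs of gene and class. In DPC-like cells, where 13.3% of genes passed, DLX3 was 3.68 and 9.10 CPM. In HFSC-like cells, where 11.6% passed, it was 3.77 and 8.60 CPM, and in both classes it rested on 20 to 47 UMIs per library. The HFSC-like difference, 1.19 on the log2 scale, fell short of 2-fold with a stricter minimum of genes per cell (0.85), with CPM averaged over cells (0.93) and with the listed factors kept in the variable genes (0.55). In cycling-like cells, where 13.9% of genes passed, it had 11.9 and 4.31 CPM, the latter from 5 UMIs, and the direction reversed at resolution 0.8. FOXN1 in basal IFE-like cells, where 9.39% of genes passed, did so on 9 and 12 UMIs, with an interval of -0.26 to 2.54 on the log2 scale, and fell short with a stricter minimum of genes (0.80), with CPM averaged over cells (0.97) and without integration (0.63). These levels are far under those of the bulb.

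In contractile-like cells, where 17.3% of genes passed 2-fold, the GATA3 level was 62.7 CPM for the straight and 142 CPM for the curly library. Straight contractile-like cells were mostly the DES cluster, 84 of 133, and curly ones mostly the ACTG2 cluster, 254 of 409, in which the levels were 111 and 177 CPM. HFSC-like cells were mixed in the same way, with 479 straight and 323 curly cells in the PTHLH cluster and 234 and 534 in the LGR5 cluster. Within them, DLX3 was 3.45 and 9.04 CPM in the PTHLH cluster and 5.22 and 8.22 CPM in the LGR5 cluster. The LGR5 values came from 5 straight and 24 curly UMIs, and the log2 interval of -0.76 to 2.40 did not exceed counting error. In the PTHLH cluster 15 and 23 UMIs gave an interval of 0.39 to 2.43. In the same PTHLH cluster HOXC13 was 9.44 and 18.9 CPM, with intervals apart.

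**Figure D4:**
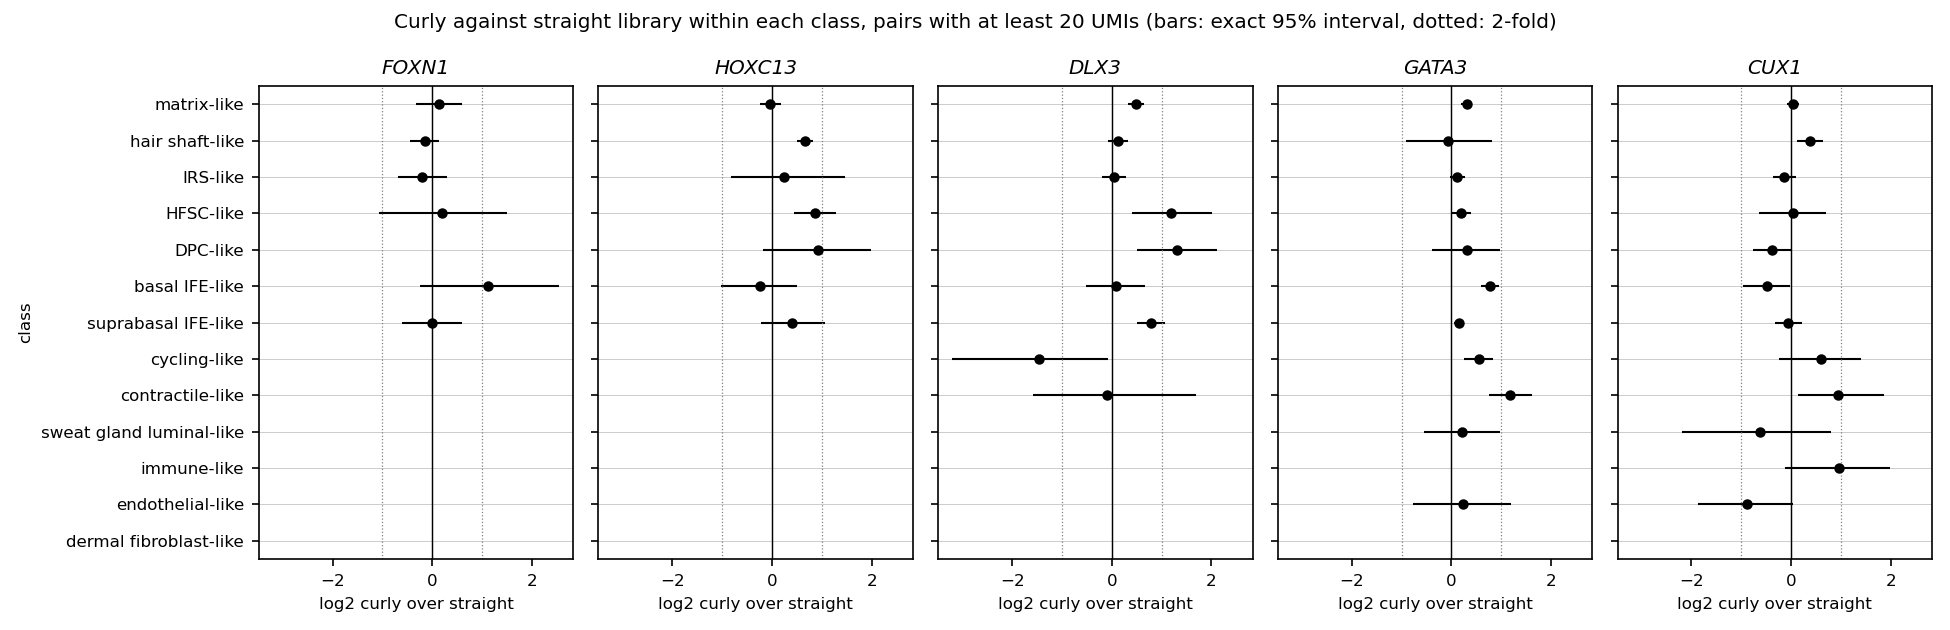
Log2 ratio of curly over straight CPM (x axis) for each factor in the 13 classes (y axis), shown for the 45 pairs with at least 20 UMIs, with exact 95% intervals and dotted lines at 2-fold. In the matrix-like, hair shaft-like and IRS-like rows all points lie within 2-fold, the farthest being HOXC13 in hair shaft-like cells at 0.66.

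Relatives of each factor were set beside it. DLX4, a paralog of DLX3, had 60.8 and 63.1 CPM in matrix-like and 39.5 and 48.0 CPM in hair shaft-like cells, while DLX5 had 8.12 and 6.03 CPM there. Of the HOXC genes measured, HOXC4 to HOXC11 lay between 0 and 3.93 CPM in hair shaft-like cells of either library. GATA2, a blood-cell paralog of GATA3, was highest in immune-like cells, and GATA6 in suprabasal IFE-like cells, with at most 0.69 CPM of either in matrix-like cells. FOXN2 and FOXN3 had no 2-fold difference between hair shaft and IRS. LDB1, the LIM-domain cofactor that LHX2 binds, was at 14.7 and 11.8 CPM in the hair shaft-like class.

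The genes whose levels over 20 clusters were most like those of a factor were ranked by the lower of the Pearson correlations in both libraries, as a description over points that share library and depth. Only clusters with at least 25 cells in each library were used, which left out the small wool keratin cluster where FOXN1 was highest. For FOXN1 the first was MT4, a metallothionein of differentiating squamous epithelium, with 0.92 and 0.84. For DLX3 it was UNC93A, with 0.84 and 0.88. For GATA3 it was TFAP2A, an epidermal factor, with 0.72 and 0.74. For CUX1 it was the zinc exporter gene SLC30A1, with 0.81 and 0.78, followed by IVL, the gene of the cornified envelope protein involucrin. For HOXC13 it was LOC114118384, with 0.74 and 0.76. MT4 and UNC93A left the 5 most like genes both with 1 CPM added and with Spearman correlations, TFAP2A with 1 CPM added, and SLC30A1 (for CUX1) and LOC114118384 with Spearman correlations. Among the factors themselves, DLX3 was most like FOXN1, at 0.76 and 0.80, and GATA3 was least like HOXC13, at -0.15 and -0.19.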

How the data were processed

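Reads of 2 droplet libraries, 1 per wool type, were aligned to Oar_rambouillet_v1.0 and counted with Cell Ranger (3.0.2 per the submitters' processing notes; the methods name another release) by the authors, who deposited 1 table. The deposited unit is a natural log, taken after each cell's UMIs were brought to a total of 10000 and 1 was added, as read from the values. Counts had been allowed for in the plan, so whole UMIs were calculated back, and 100% of 28552149 values above 0 were whole within 0.01. All columns were used, with 0 left out.

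Integration used Seurat 5.3.0 (R 4.3.3; anchors, 2000 variable genes, 30 dimensions), leaving the members and the other listed factors out of the variable genes, and clustered at the lowest resolution with at least 19 clusters. A class needed a mean log2 marker ratio of at least 1.5 (5 CPM added), at least 3 markers in 10% of cells, no other class ahead among the 10 leading genes, and enough depth. Sebocyte-like cells were left out of comparisons, with under 25 curly cells. Finer groups came from resolution 1.2. The ordering was diffusion pseudotime in scanpy 1.11.5 (30 neighbours, 10 components).

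Doublets were kept. Scrublet called 60 cells, 0.427%, so the 6% with the highest scores were removed as an alternative. UMIs were summed per class and library as CPM. Log2 ratios have exact binomial intervals of the split of UMIs, and shares have exact Clopper-Pearson intervals, all at 95%. Genes with 0 UMIs in a library may lie at up to 3 counts, 0.0518 CPM for the straight and 0.0386 CPM for the curly library. Members, lists and naming limits were chosen with earlier results of these data known. The named genes were the members, the 5 genes most like each over clusters (at least 200 UMIs), listed factors past 2-fold, listed relatives and class keratins, and genes that lead a cluster were named after their values were seen. Symbols without a row were searched in RefSeq (ARS-UI_Ramb_v3.0) for names only. The 2-fold rule was tested on simulated data. Alternatives varied resolution, cell filter, doublets, averaging, integration, thinning, pseudocount and likeness.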

Additional observations from a re-analysis of the deposited data

Results flagged for a closer look

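FOXN1 in the unnamed wool keratin cluster reached 334 CPM for the straight and 219 CPM for the curly library, outside the comparisons of named classes and above the interval of its highest named class in both libraries. This rests on 34 cells, and 18 of the 21 straight ones had high doublet scores, whose part in the value was not tested.

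DLX3 passed 2-fold between curly and straight cells in opposite directions in different classes. Its log2 ratio of curly over straight was 1.31 in DPC-like, 1.19 in HFSC-like and -1.47 in cycling-like cells. This difference between classes was not tested, since each wool type had 1 library, and the cycling-like value rests on 5 curly UMIs. The cycling-like value reversed to 0.72 at resolution 0.8, and the HFSC-like value fell to 0.55 with the listed factors kept in the variable genes. KRT71 was also found in a larger share of curly than of straight DPC-like and HFSC-like cells. The part of free RNA or doublets in the DLX3 values was not tested.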

How the results depend on the processing

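No paired analysis was possible because each wool type had 1 library, and for the same reason no library could be left out. HOXC13 and GATA3 passed 2-fold between hair shaft and IRS in both libraries, and all 5 factors kept a hair follicle class as their highest, under every alternative run for them, also without the 140 cells whose barcode occurs in both libraries. FOXN1 joined them with a stricter minimum of genes per cell, which gave 3 of 5 factors. With that minimum the highest class of DLX3 was hair shaft in straight and matrix in curly cells, and with the listed factors kept in the variable genes that of CUX1 in curly cells was matrix.

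Factors past 2-fold between curly and straight cells of a class went from 3 to 5 with high doublet scores removed, where HOXC13 in DPC-like cells passed on 12 and 11 UMIs and CUX1 in contractile-like and endothelial-like cells on 12 and 96 and on 35 and 9 UMIs. The DLX3 difference in cycling-like cells reversed to 0.72 on the log2 scale at resolution 0.8. The CUX1 difference over whole libraries all but vanished, to -0.009, at the straight mix of clusters, an alternative added after seeing the data. With immune-like cells as the background, of which 21 curly cells reached 4000 UMIs, 2 rather than 4 factors lay above it. Of the 25 most like genes, 16 remained with 1 CPM added and 6 with Spearman correlations. Of the 5 first-ranked genes, MT4 and UNC93A were lost under both. The cause was not tested.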

Other observations

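The low-UMI cluster, 340 straight and 861 curly cells with a median depth of 741 UMIs, carried GATA3 at 142 and 171 CPM and FOXN1 at 38.5 and 32.7 CPM. The FLG-bearing suprabasal cells held 22.1% of all straight and 17% of all curly GATA3 UMIs, beside 8.42% and 7.56% of all UMIs. Hair shaft-like cells held 31.8% and 33.0% of FOXN1 UMIs, and the wool keratin cluster 21.6% and 4.72%, beside 0.573% and 0.212% of all UMIs.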
